A study of Homo sapiens with 12 samples.

Results

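SOST, PRELP, NXF3, SCUBE3, CLSTN2, ITGB7, DAAM2, ROS1 and GPC4 are 9 genes, of 57820 listed, that were picked because their transcripts were far more abundant in cells given the KLF5 missense form E419Q than in cells given wild-type KLF5 or an empty vector. They were found by symbol in the HCC95 files and by the same Ensembl ID in the BICR31 files, and all 9 were found in both. Poly(A) RNA was sequenced from 5 groups of 2 human squamous carcinoma cell lines. HCC95, a lung squamous cell carcinoma line, overexpressed KLF5 E419Q, overexpressed KLF5 WT or carried the empty vector, with 2 libraries each, lettered A and B. BICR31, a head and neck squamous cell carcinoma line, was treated with a small interfering RNA that silences KLF5 (siKLF5) or with the control siNC, with 3 libraries each, lettered A to C. No untreated parental cells were analysed here, and the labels name neither the vector, nor the promoter that drives it, nor the number of clones. Whether replicate libraries stem from independent cultures is not stated either. The p-values below therefore cover only variation among the libraries sequenced, and that variation may be technical.

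KLF5 is a zinc-finger transcription factor of epithelial cells that binds GC-rich boxes and CACCC-type elements in promoters and enhancers, and it is known for maintaining the basal layer of squamous epithelium. E419Q replaces a glutamate by a glutamine in the DNA-binding zinc fingers and occurs as a recurrent mutation in carcinomas. The 9 genes belong to no single pathway. SOST, SCUBE3 and PRELP encode secreted proteins, GPC4, CLSTN2, ITGB7 and ROS1 encode proteins of the cell surface, and DAAM2 and NXF3 encode proteins of the cell interior.

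The 250 bases before the annotated transcription start are shown for the genes whose excess was the largest by the rule of choice (SOST, PRELP and NXF3) and for the one with the most reads (GPC4), because KLF5 is a factor that reads promoter sequence. They are RefSeq sequences on GRCh38.p14, written 5′ to 3′ along the gene. Capitals mark GGGNGG on either strand, the core of a GC box with any base in the middle position; neighbouring matches can overlap.
SOST (chr17:43758792-43759041, minus strand): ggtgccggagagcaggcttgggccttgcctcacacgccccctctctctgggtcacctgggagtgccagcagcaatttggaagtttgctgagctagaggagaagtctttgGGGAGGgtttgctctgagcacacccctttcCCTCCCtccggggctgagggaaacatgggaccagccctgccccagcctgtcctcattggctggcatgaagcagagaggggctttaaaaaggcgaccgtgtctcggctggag
PRELP (chr1:203475556-203475805, plus strand): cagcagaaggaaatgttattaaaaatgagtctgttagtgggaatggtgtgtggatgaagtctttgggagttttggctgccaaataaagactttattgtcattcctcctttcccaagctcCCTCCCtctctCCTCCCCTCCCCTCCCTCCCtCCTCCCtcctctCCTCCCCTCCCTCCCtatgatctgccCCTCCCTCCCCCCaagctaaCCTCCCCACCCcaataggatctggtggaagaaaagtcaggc
NXF3 (chrX:103093144-103093393, minus strand): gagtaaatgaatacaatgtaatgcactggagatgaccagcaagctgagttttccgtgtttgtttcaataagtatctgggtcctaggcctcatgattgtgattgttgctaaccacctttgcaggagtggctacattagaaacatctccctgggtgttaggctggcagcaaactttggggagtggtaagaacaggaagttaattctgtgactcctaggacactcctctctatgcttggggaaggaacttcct
GPC4 (chrX:133415490-133415739, minus strand): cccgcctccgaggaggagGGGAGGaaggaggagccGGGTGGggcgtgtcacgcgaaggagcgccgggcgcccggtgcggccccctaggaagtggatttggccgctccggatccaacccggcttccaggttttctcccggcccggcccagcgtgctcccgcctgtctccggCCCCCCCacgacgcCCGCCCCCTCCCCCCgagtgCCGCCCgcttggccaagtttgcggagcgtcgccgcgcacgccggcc

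In a 300-base window that adds the first 50 transcribed bases, GGGNGG was found in 6 of the 8 genes that had a promoter entry, against 74.52% of all 35116 RefSeq promoters searched. DAAM2 had 2 entries, of which the first is counted; the second had 1 match and a GC content of 53.0%. PRELP held 14 matches, 12 of them GGGAGG, at the 99.17th percentile of all promoters. GPC4 held 8 matches, 2 of them GGGCGG and 2 GGGAGG, at the 92.28th percentile. SOST held 2 matches, both GGGAGG, and NXF3 and ROS1 held none. GGGAGG occurred in 4 of 8 windows against 49.27% of all promoters, GGGCGG in 3 of 8 against 44.95%, GGGTGG in 3 of 8 against 34.29% and GGGGGG in 3 of 8 against 18.84%. CCNCNCCC, a looser motif that overlaps these cores, occurred in 6 of 8 against 56.18%, and GGGTGTG in 2 of 8 against 7.564%. GC content spread from 40.0% for ROS1 and 47.33% for NXF3 to 74.67% for GPC4 and 75.33% for CLSTN2, around a median of 58.67% over all promoters, so the 8 windows shared no common base composition. These matches describe letters in a window and are not binding sites.

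The HCC95 libraries held 3074139 and 3364760 expected counts with E419Q, 3516984 and 3992553 with WT, and 3455397 and 4643792 with the empty vector. The BICR31 libraries held about 2150777 to 2296190 counts with siKLF5 and 1922358 to 1934361 with siNC, estimated from the step of the deposited signal. KLF5 itself averaged 435 ± 10.25 CPM (counts scaled to the library total, SD, n = 2) with E419Q, 412 ± 11.3 CPM with WT and 143 ± 9.77 CPM with the empty vector. The difference between E419Q and WT did not pass the test (log2 fold change 0.06, SE 0.0616, edgeR adjusted p = 0.683). In pooled counts KLF5 with E419Q was 1.057 times that with WT (1.004 to 1.113), transcripts of the vector included. In BICR31, KLF5 fell with siKLF5 (log2 fold change -1.40, limma adjusted p = 7.27e-09). All 12 squamous and epithelial markers were detected in every library, and among the HCC95 groups their summed level was lowest with E419Q (15850 to 16800 CPM, against 24810 to 25880 CPM with WT and 21010 to 21870 CPM with the empty vector). Pooled counts of single genes, here and below, are not scaled to depth, and each E419Q library held fewer counts than any other HCC95 library. KRT5 held most of that sum, with 71016 pooled counts with E419Q, 123584 with WT and 115675 with the empty vector. KRT17 had 6155, 31479 and 25697 in the same order. Not every marker followed the sum. SOX2 had 697 pooled counts with E419Q, 357 with WT and 442 with the empty vector, and CDH1 averaged 308, 192 and 239 CPM. The part of these marker differences in the results on the 9 genes was not tested.

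The 9 genes were chosen by their levels in these HCC95 libraries, E419Q against WT and against the empty vector, so those levels are given as a description without a test. Intervals are 95% exact intervals on pooled counts. Because they treat the pooled reads as independent draws, they leave out variation between the libraries of a group. The reads carry no molecular identifiers, so copies of the same molecule may be counted more than once, which the intervals do not cover either. In bulk RNA, more cells that express a gene and more RNA per cell cannot be told apart.

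SOST (ENSG00000167941.2) encodes sclerostin, a secreted inhibitor of WNT signalling that osteocytes make to restrain bone formation. It had 60 and 78 counts in the E419Q libraries, against 1 and 2 counts with WT and 2 and 1 counts with the empty vector. Both E419Q libraries were far above the other 4, which held no more than 2 counts each. The mean was 21.35 ± 2.59 CPM (SD, n = 2) with E419Q, 0.393 ± 0.153 CPM with WT and 0.397 ± 0.257 CPM with the empty vector. The pooled level with E419Q was 53.65 times that with WT (17.98 to 263.3) and 57.86 times that with the empty vector (19.39 to 284). By the smaller of the 2 ratios SOST ranked 1 of 12031 genes with at least 10 counts in each E419Q library.

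SCUBE3 (ENSG00000146197.7) encodes a secreted glycoprotein with CUB and EGF-like domains that binds the type II TGF-beta receptor and acts as a co-receptor for BMP ligands. It had 80 and 78 counts with E419Q, against 6 and 8 counts with WT and 4.02 and 8 counts with the empty vector. It was present at a low level in all 4 of the other libraries, with more counts in each of them than SOST. Its pooled level with E419Q was 13.16 times that with WT (7.616 to 24.63) and 16.56 times that with the empty vector (9.219 to 32.73).

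PRELP (ENSG00000188783.5) encodes a small leucine-rich proteoglycan that anchors basement membranes to the connective tissue beneath them. It had 36 and 26 counts with E419Q, 2 and 0 counts with WT and no count in either empty vector library. Its pooled level with E419Q was 36.15 times that with WT (9.596 to 305.2) and at least 26.0 times that with the empty vector, taking 3 counts over the group as the most that a count of 0 allows. The groups did not overlap, but the E419Q libraries differed by more than those of CLSTN2 or SCUBE3, with a mean of 9.72 ± 2.82 CPM (SD, n = 2).

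GPC4 (ENSG00000076716.7) encodes glypican 4, a heparan sulphate proteoglycan held at the membrane by a lipid anchor, which modulates WNT, FGF and BMP signals. It had 342 and 395 counts with E419Q, 74 and 98 counts with WT and 108 and 148 counts with the empty vector. It was thus well expressed in every HCC95 library, and "switched on" does not describe it. Its mean was 114 ± 4.34 CPM (SD, n = 2) with E419Q, 22.8 ± 2.48 CPM with WT and 31.56 ± 0.435 CPM with the empty vector. The pooled level with E419Q was 4.997 times that with WT (4.228 to 5.934) and 3.621 times that with the empty vector (3.137 to 4.191), the narrowest intervals of the 9.

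CLSTN2 (ENSG00000158258.11) encodes calsyntenin 2, a cadherin-like protein of postsynaptic membranes. It had 45 and 50 counts with E419Q, 5 and 8.01 counts with WT and 4 and 4 counts with the empty vector. The E419Q libraries agreed closely, at 14.75 ± 0.157 CPM (SD, n = 2), and both lay above all the others. The pooled level was 8.523 times that with WT (4.753 to 16.59) and 14.94 times that with the empty vector (7.281 to 35.6).

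ITGB7 (ENSG00000139626.11) encodes the integrin beta 7 subunit, which lymphocytes pair with alpha 4 or alpha E to home to and stay in the gut mucosa. It had 19 and 17 counts with E419Q, 12 and 7 counts with WT and 2 and 0 counts with the empty vector. ITGB7 had 19 pooled counts with WT and the smallest ratio of E419Q over WT of the 9. Its pooled level with E419Q was 2.21 times that with WT (1.234 to 4.078) and 22.64 times that with the empty vector (5.829 to 194.1). Of 12 immune markers, CD3D, CD3E, MS4A1, CD79A and NKG7 had no count in any HCC95 library. The immune markers summed to 3.01 to 3.93 CPM with E419Q, 0.569 to 2.04 CPM with WT and 1.30 to 1.75 CPM with the empty vector. PTPRC, the pan-leukocyte marker CD45, had 1 count in the pooled E419Q libraries and none with WT or the empty vector. CD8A had 11 pooled counts with E419Q, 3 with WT and 5 with the empty vector, CD14 had 3 with E419Q, 1 with WT and none with the empty vector, and LYZ had 7 with E419Q, 4 with WT and 7 with the empty vector. The part of these low counts in the ITGB7 values was not tested.

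ROS1 (ENSG00000047936.6) encodes a receptor tyrosine kinase of epithelia that is activated by fusions in some lung cancers. It had 14 and 19 counts with E419Q, 0 and 2 counts with WT and 1 and 5 counts with the empty vector. The groups did not overlap, but the 5 counts of empty vector library B show that it was not silent without E419Q. The pooled level was 19.24 times that with WT (4.922 to 165.5) and 6.918 times that with the empty vector (2.862 to 20.2).

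DAAM2 (ENSG00000146122.12) encodes a formin that links WNT and Dishevelled signals to actin. It had 15 and 25 counts with E419Q, 1 and 0 counts with WT and 2 and 4 counts with the empty vector. Its pooled level with E419Q was 46.65 times that with WT (7.906 to 1888) and 8.386 times that with the empty vector (3.533 to 24.2). The ratio over WT rests on 1 count in the WT libraries and is correspondingly imprecise.

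NXF3 (ENSG00000147206.12) encodes a relative of the mRNA export receptor NXF1, with expression known mainly in testis. It had 16 and 22 counts with E419Q and none in any of the other 4 HCC95 libraries. Its pooled level with E419Q was at least 14.77 times that with WT and at least 15.93 times that with the empty vector, each against 3 counts over the group. NXF3 was the only one of the 9 with no count in both other groups.

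**Figure D1:**
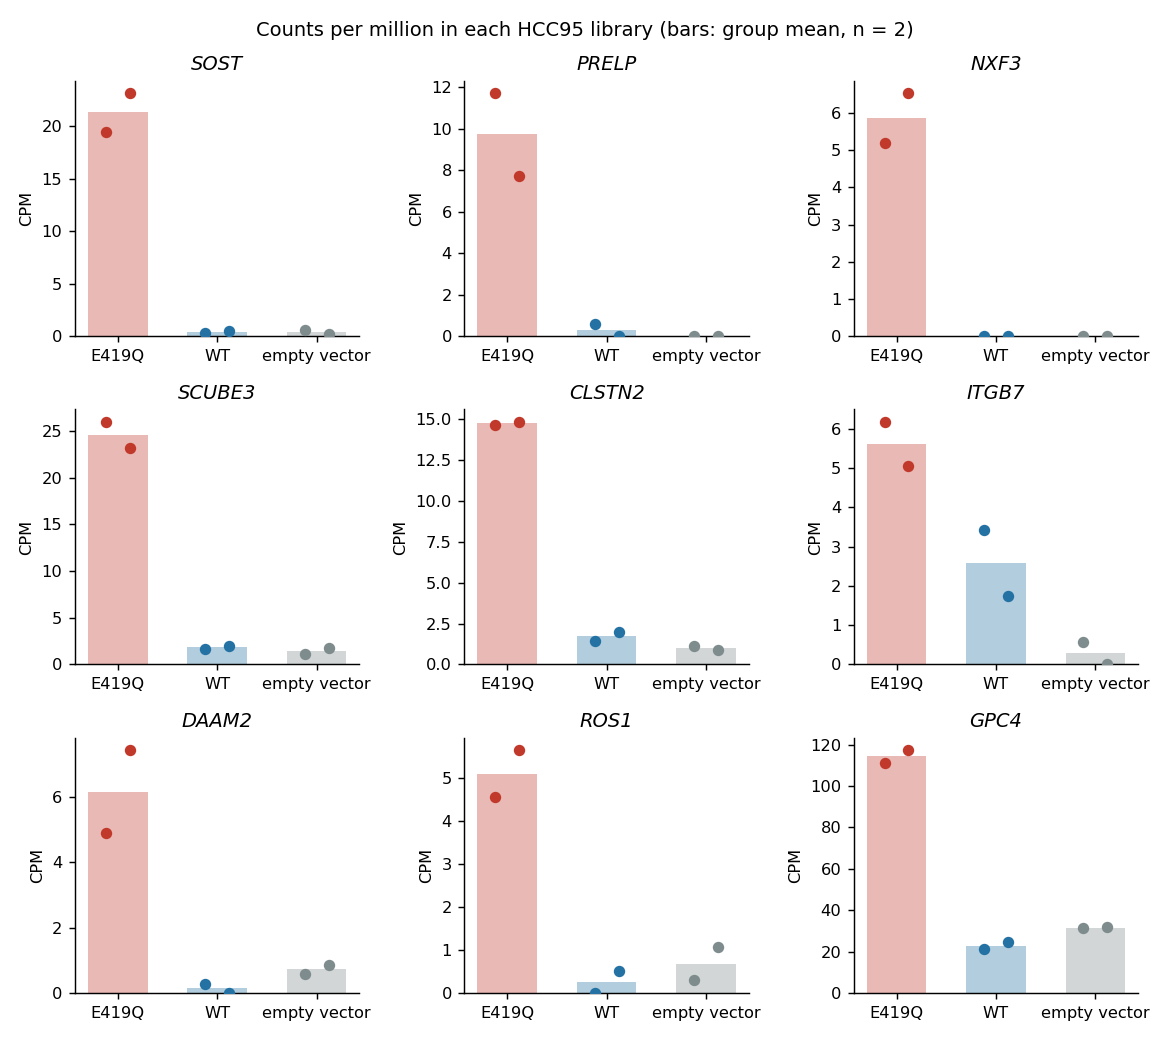
CPM (linear axis from 0, one scale per panel) of the 9 genes in each HCC95 library, as points, with the group mean as a bar (n = 2 libraries each). The E419Q libraries lie above the WT and empty vector libraries in every panel; GPC4 is expressed in all 3 groups and ITGB7 also with WT.

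**Figure D2:**
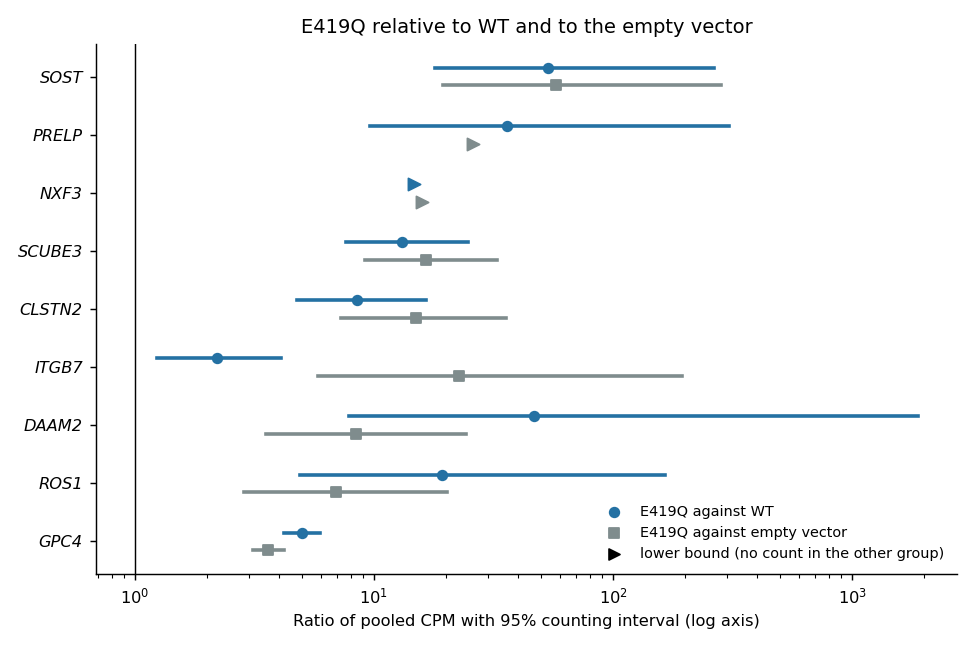
Ratio of the pooled CPM with E419Q to that with WT (circles) and to that with the empty vector (squares), on a log axis, with 95% exact counting intervals; triangles are lower bounds where the other group had no count. The triangles take the E419Q counts as exact and are not interval limits. The intervals are widest where the denominator is smallest, as for DAAM2 over WT (7.906 to 1888), and narrowest for GPC4.

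Per length of transcript, the order of levels with E419Q was led by GPC4 at 56.34 ± 2.48 TPM (abundance scaled for length and depth, SD, n = 2), followed by SOST at 14.47 ± 1.68 TPM. NXF3 at 9.86 ± 6.42 TPM, ITGB7 at 6.265 ± 2.50 TPM and SCUBE3 at 5.095 ± 0.191 TPM came next, and these neighbours did not differ beyond their spread. PRELP at 2.505 ± 0.743 TPM, CLSTN2 at 2.43 ± 0.240 TPM, DAAM2 at 1.945 ± 1.10 TPM and ROS1 at 1.445 ± 0.474 TPM closed the order, again without a clear separation. The wide spread of NXF3 went with its RSEM effective length, which was 648.7 bases in one E419Q library and 1411 bases in the other.

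Over the 12031 genes with at least 10 counts in each E419Q library, the median ratio was 1.017 over WT and 1.027 over the empty vector. Only 9 genes, or 0.0748%, were at least 8 times as high with E419Q as in both other groups. These 9 hold 6 of the genes described here (SOST, PRELP, NXF3, SCUBE3, CLSTN2 and DAAM2) together with SERPINB3, FOLR1 and FLG. The same criterion found 0 of 12355 genes (0.00%) high with WT and 5 of 12139 (0.0412%) high with the empty vector. Outside it, ROS1 ranked 11 with a smaller ratio of 6.918, GPC4 ranked 36 with 3.621 and ITGB7 ranked 97 with 2.21. Measured by TPM in place of CPM, the smaller ratio was 7.254 for CLSTN2, 3.569 for DAAM2 and 10.32 for ROS1.

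**Figure D3:**
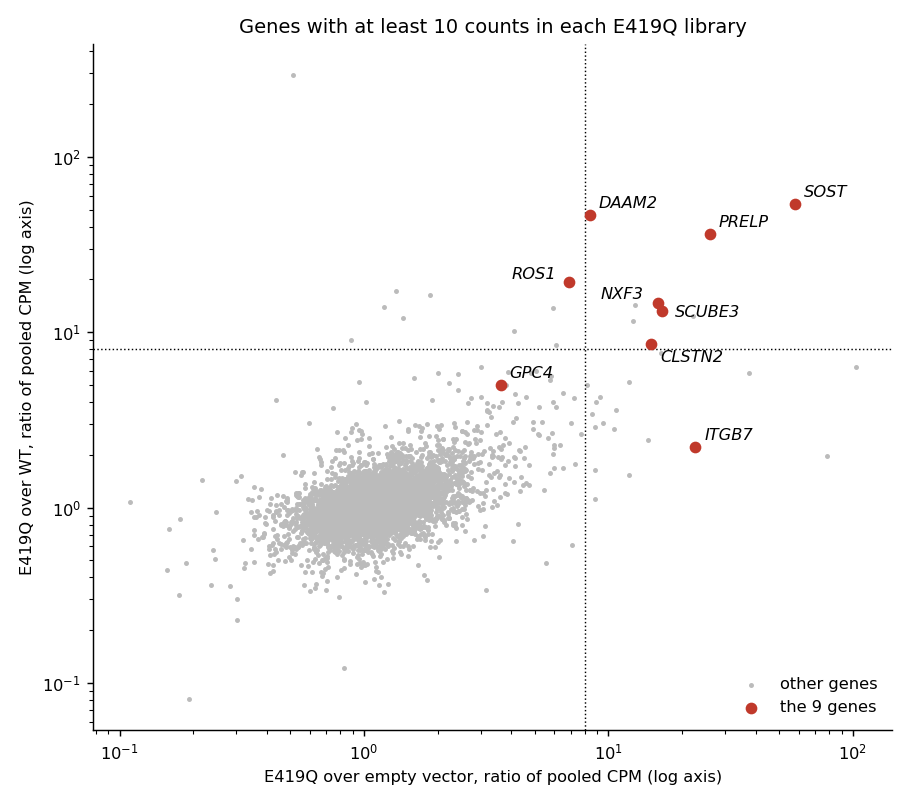
Ratio of pooled CPM, E419Q over the empty vector (horizontal) and E419Q over WT (vertical), both on log axes, for the 12031 genes with at least 10 counts in each E419Q library; the 9 genes are in red and dotted lines mark 8 times. A group with fewer than 3 counts was set to 3 counts only where it had none, so NXF3 and the horizontal value of PRELP are lower bounds; 6 of the 9 lie beyond both lines.

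The 3 other genes of that pattern met the same criterion of excess with E419Q, so a similar course over the 6 HCC95 libraries was fixed by the choice. Pearson's r of their log2(CPM + 1) with the mean of the 9 genes' standardised profiles was 0.9899 for SERPINB3, 0.9866 for FOLR1 and 0.9098 for FLG. The 9 genes themselves, each a part of that mean, ranged from 0.7809 for ITGB7 to 0.9983 for NXF3. With 3 groups of 2 libraries that share their treatments, such values describe the grouping. SERPINB3, a serine protease inhibitor of squamous epithelium, had 23 and 37.94 counts with E419Q, 2 and 3 counts with WT and 3 and 3 counts with the empty vector. Its near-identical copy SERPINB4 makes its count uncertain. FOLR1, the folate receptor alpha, had 15 and 15 counts with E419Q, 1 and 2 counts with WT and none with the empty vector. FLG, which encodes the skin barrier protein filaggrin, had 81 and 25 counts with E419Q, 4 and 6 counts with WT and 0 and 6 counts with the empty vector, so its E419Q libraries disagreed.

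The comparison of WT with the empty vector asks whether raising normal KLF5 moves the same genes, and the choice of the 9 did not use the difference between these groups. Without the E419Q libraries only GPC4 passed the filter on low counts. The other 8 entered the fit only through the group in which they are high, so their values are given without a test.

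GPC4 fell with WT, to 22.8 ± 2.48 CPM against 31.56 ± 0.435 CPM with the empty vector (SD, n = 2 each), a log2 fold change of -0.48 (SE 0.1395, edgeR adjusted p = 0.0161). Over all 12933 genes tested, 22.9% were called (10.8% as rises and 12.1% as falls). The GPC4 call was lost with DESeq2 (adjusted p = 0.1216), without empty vector library B (0.0820) and without WT library A (0.152), over a range of 0.0155 to 0.152 in 11 alternatives.

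ITGB7 averaged 2.58 ± 1.17 CPM with WT and 0.289 ± 0.409 CPM with the empty vector, and its 19 pooled counts with WT against 2 with the empty vector gave a ratio of 10.25 (2.472 to 90.72). Both WT libraries lay above both empty vector libraries. NXF3 had no count in either group, and PRELP had 2 counts with WT and none with the empty vector. SOST had 3 pooled counts in each group, a ratio of 1.079 (0.1445 to 8.052). SCUBE3 had a ratio of WT over the empty vector of 1.258 (0.5402 to 2.978) and CLSTN2 one of 1.753 (0.6733 to 4.878). The intervals of these 3 genes include a ratio of 1. DAAM2 had 1 count with WT and 6 with the empty vector, a ratio of 0.180 (0.00391 to 1.482), and ROS1 had 2 counts with WT and 6 with the empty vector, a ratio of 0.3595 (0.0355 to 2.011). At these counts smaller differences between WT and the empty vector were not detectable.

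Silencing of KLF5 in BICR31 asks whether the same genes respond when the cell's own KLF5 is lowered, in libraries that the choice of the 9 did not use. Here 4 of the 9 (SCUBE3, GPC4, ITGB7 and DAAM2) reached a mean of 10 units of the deposited signal and were tested. SCUBE3 and GPC4 rose and none fell, where 26.1% of all 15710 genes tested were called (15.3% as rises and 10.8% as falls).

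SCUBE3 had 123.3, 141.7 and 141.7 units in the siKLF5 libraries, against 27.3, 54.7 and 9.03 units in the siNC libraries. Every siKLF5 library was above every siNC library. The log2 fold change of log2(units + 1) was 2.44 (SE 0.560, limma adjusted p = 0.00345), a fold of 5.43, and the call was kept in all 11 alternatives, with adjusted p between 0.000545 and 0.0301. In estimated counts this was 50 with siKLF5 against 10 with siNC, a ratio of pooled CPM of 4.356 (2.183 to 9.633). SCUBE3 was thus higher both with E419Q in HCC95 and with less KLF5 in BICR31, in different cell lines.

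GPC4 had 123.3, 175 and 244.1 units in the siKLF5 libraries, against 81.8, 54.7 and 99.4 units in the siNC libraries. The groups did not overlap, but the siKLF5 libraries were spread over a wide range. The log2 fold change was 1.18 (SE 0.347, limma adjusted p = 0.0181), a fold of 2.26. That call was lost without siKLF5 library B (limma adjusted p = 0.0586), without siKLF5 library C (0.1228) and without siNC library B (0.0675), over a range of 0.00856 to 0.1228 in 11 alternatives. In direction, GPC4 fell where WT KLF5 was added to HCC95 and rose where KLF5 was silenced in BICR31; the lines differ, and the difference between them was not tested.

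ITGB7 had 73.95, 16.67 and 23.62 units with siKLF5 against 0, 36.47 and 63.23 units with siNC, and the groups overlapped throughout (log2 fold change 1.25, SE 1.26, limma adjusted p = 0.516). DAAM2 had 8.22, 8.33 and 15.75 units with siKLF5 against 27.27, 9.12 and 0 units with siNC (log2 fold change 0.78, SE 1.51, limma adjusted p = 0.757). Its mean was lower with siKLF5 while the fold change on the log scale was positive, because siNC library C was at 0. The remaining 5 were at or near 0 in BICR31. SOST had 4 pooled estimated counts with siKLF5 and 2 with siNC, CLSTN2 and ROS1 had 1 with siKLF5 and none with siNC, PRELP had none with siKLF5 and 1 with siNC, and NXF3 had none.

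**Figure D4:**
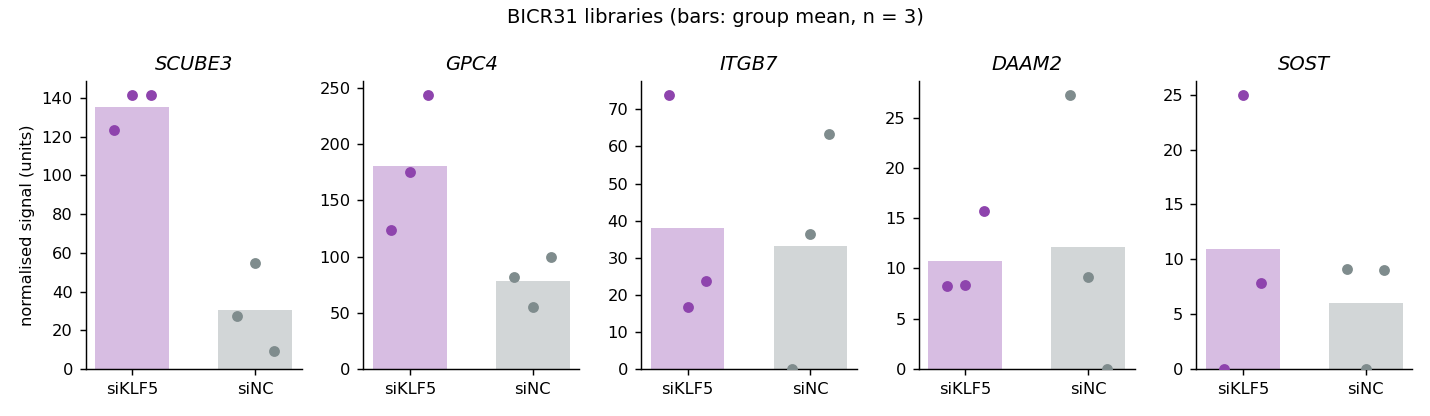
Deposited normalised signal (linear axis from 0, one scale per panel) of SCUBE3, GPC4, ITGB7, DAAM2 and SOST in each BICR31 library, as points, with group means as bars (n = 3 each). The siKLF5 libraries lie above the siNC libraries for SCUBE3 and GPC4 and overlap them for the other 3 genes.

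Relatives and partners of the 9 genes, from lists by family and pathway, were tested in HCC95. Across all 12933 genes, 21.2% were called with E419Q against the empty vector (10.4% as rises and 10.8% as falls) and with E419Q against WT 4.41% rose and 3.59% fell. Both comparisons use the same E419Q libraries. The 9 genes were left out of these lists. Calls against the empty vector varied over the alternatives, which gave 4 to 6 rises and 0 to 2 falls among the WNT antagonists, 4 to 6 and 0 to 3 among the planar polarity genes, 8 to 10 and 2 to 6 among the receptor tyrosine kinases, and 1 to 4 and 2 to 4 among the integrins. Among the proteoglycans they gave 7 to 9 rises and 0 to 1 falls.

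Among the heparan sulphate proteoglycans, the family of GPC4, 7 of 12 tested rose and none fell against the empty vector, and 5 rose and none fell against WT (3 to 6 in the alternatives). The median log2 fold change was 0.48 against the empty vector and 0.19 against WT, with medians of 0.00 over all genes tested. WT against the empty vector gave 5 rises and no falls among the same 12 (3 to 7 rises in the alternatives), with a median of 0.44. Over all genes that comparison had 10.8% rises and 12.1% falls. GPC3, the glypican gene that lies beside GPC4 on the X chromosome, had 16.47 ± 0.173 CPM with E419Q, 5.30 ± 0.656 CPM with WT and 3.06 ± 0.238 CPM with the empty vector. It rose against the empty vector (log2 fold change 2.37, SE 0.289, edgeR adjusted p = 2.32e-06) and against WT (1.61, SE 0.264, edgeR adjusted p = 0.000211) and kept both calls in all 11 alternatives. WT against the empty vector did not move GPC3 past the threshold (log2 fold change 0.77, edgeR adjusted p = 0.121). TGFBR3, the betaglycan co-receptor, rose against the empty vector by 2.20 (log2, SE 0.240), COL18A1, a basement membrane collagen, by 1.07 and AGRN, the basement membrane protein agrin, by 0.99. TGFBR3 and COL18A1 also rose against WT (0.78 and 0.62) and with WT against the empty vector (1.42 and 0.45). AGRN did not pass against WT (0.15, edgeR adjusted p = 0.335), and it rose with WT against the empty vector (0.84). GPC1, the most abundant glypican, had 1176 ± 17.5 CPM with E419Q, 1321 ± 60.6 CPM with WT and 1077 ± 239.8 CPM with the empty vector and passed in neither comparison with E419Q, and GPC5 and GPC6 had no count. Of the enzymes that build and edit heparan sulphate, 2 of 19 rose and 4 fell against the empty vector, and 1 rose and 1 fell against WT. With WT against the empty vector, 2 of the same 19 rose and 5 fell. NDST1, an N-sulphotransferase, was lowest in fold against the empty vector (-1.10, SE 0.0704) among the 3 with the smallest adjusted p. It fell with WT against the empty vector as well (-0.80, SE 0.0675). Against WT its fall with E419Q was smaller (-0.29, edgeR adjusted p = 0.0143).

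Of 17 other small leucine-rich proteoglycans, the family of PRELP, 1 was expressed enough to test, TSKU (tsukushi, a secreted antagonist of several growth factors). TSKU averaged 249.4 ± 5.83 CPM with E419Q, 190.3 ± 16.2 CPM with WT and 201.2 ± 2.30 CPM with the empty vector. It rose against WT (log2 fold change 0.37, edgeR adjusted p = 0.00129), a call lost without WT library A (0.0569, the highest of the alternatives). It also rose against the empty vector (0.28, edgeR adjusted p = 0.00614), a call lost with DESeq2 and without E419Q library B (adjusted p up to 0.0809). DCN, BGN, LUM, FMOD and OMD had no count with E419Q or WT, and DCN had 1 count with the empty vector. The 11 fibroblast and endothelial markers that were found summed to 89.5 to 100.5 CPM with E419Q, 72.1 to 81.6 CPM with WT and 79.7 to 80.7 CPM with the empty vector, with LUM and KDR at 0 throughout. THY1, VWF and COL1A1 held most of that sum. Before scaling to depth, which was lowest with E419Q, THY1 had 333 pooled counts with E419Q, 404 with WT and 449 with the empty vector. In the same order VWF had 175, 105 and 94, and COL1A1 had 88, 51 and 84.

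Of the WNT antagonists, receptors and feedback genes around SOST, 6 of 13 rose and 2 fell against the empty vector, and 2 rose and 1 fell against WT. With WT against the empty vector, 4 of the same 13 rose and 2 fell (2 to 4 and 1 to 2 in the alternatives). SOSTDC1, the closest relative of SOST, rose to 83.5 ± 7.97 CPM with E419Q, against 45.25 ± 2.36 CPM with WT and 37.1 ± 2.81 CPM with the empty vector (log2 fold change 0.86, edgeR adjusted p = 9.11e-06 against WT; 1.15, edgeR adjusted p = 1.09e-07 against the empty vector). SFRP1, a secreted WNT-binding antagonist, rose by 0.96 against WT and by 1.27 against the empty vector. LRP5, a WNT co-receptor that sclerostin binds, rose against the empty vector by 0.93 (SE 0.102) and did not pass against WT (0.20, edgeR adjusted p = 0.272). The other sclerostin receptors LRP6 and LRP4 passed in neither. Bone markers were nearly absent beside SOST: of 12 bone and cartilage markers, SP7, MEPE, FGF23, ACAN and COL10A1 had no count in any HCC95 library, and the sum was 3.58 to 4.55 CPM with E419Q, 4.55 to 5.51 CPM with WT and 3.32 to 3.47 CPM with the empty vector. MATN3 and PHEX held most of that sum. MATN3 had 13 pooled counts with E419Q, 27 with WT and 9 with the empty vector, and PHEX had 8, 9 and 9.

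Around DAAM2, 6 of 22 WNT planar polarity genes rose and 3 fell against the empty vector, and 5 rose and 1 fell against WT (3 to 5 rises in the alternatives). FZD7, a WNT receptor, rose to 57.9 ± 0.404 CPM with E419Q, against 24.4 ± 1.62 CPM with WT and 22.5 ± 0.483 CPM with the empty vector (log2 fold change 1.23 against WT and 1.33 against the empty vector). WNT11, a ligand of this branch, rose by 2.78 against the empty vector (SE 0.363) and by 1.58 against WT (SE 0.312), where the call was lost without E419Q library A (edgeR adjusted p = 0.0936, the highest of the alternatives). PRICKLE1, a cytoplasmic polarity protein, fell by 1.25 on the log2 scale against WT. Of 11 other formins, 4 rose and 1 fell against the empty vector (2 to 4 and 1 in the alternatives), and none rose and 2 fell against WT (0 and 0 to 2). INF2 rose by 0.98 and FMNL2 by 0.68 against the empty vector, both regulators of actin assembly. Both also rose with WT against the empty vector (0.76 and 0.99). Neither passed with E419Q against WT (0.22, edgeR adjusted p = 0.417 for INF2, and -0.30, edgeR adjusted p = 0.0632 for FMNL2). With WT against the empty vector, 3 of the same 11 formins rose and none fell (2 to 4 and 0 to 1 in the alternatives). DAAM1, the nearest relative of DAAM2, averaged 15.5 ± 0.767 CPM with E419Q, 22.8 ± 1.34 CPM with WT and 14.3 ± 1.40 CPM with the empty vector.

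Of the receptor tyrosine kinases, the class of ROS1, 9 of 29 rose and 6 fell against the empty vector, and 11 rose and 2 fell against WT (6 to 11 rises in the alternatives). FGFR1, a receptor for fibroblast growth factors, had 371 ± 19.8 CPM with E419Q, 74.3 ± 2.19 CPM with WT and 96.95 ± 4.50 CPM with the empty vector, a log2 fold change of 2.30 against WT (SE 0.0779, edgeR adjusted p = 9.35e-15) and 1.90 against the empty vector. NTRK2, the neurotrophin receptor TrkB, rose by 0.99 against WT and 1.52 against the empty vector, and EPHB6, an ephrin receptor without kinase activity, by 1.38 and 2.33. ALK and LTK, the receptors nearest to ROS1 in this class by kinase sequence, had 2 and 3 pooled counts with E419Q, none with WT and 1 and 2 with the empty vector. NELL2, a secreted protein known in mice as a ligand of Ros1, averaged 7.92 ± 0.154 CPM with E419Q, 4.39 ± 0.172 CPM with WT and 2.81 ± 0.933 CPM with the empty vector. It rose against the empty vector (log2 fold change 1.495, edgeR adjusted p = 0.00525), a call lost with DESeq2 (adjusted p = 0.115), without E419Q library B (0.0516) and without empty vector library B (0.0890), over a range of 0.000627 to 0.115.

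Integrins moved in both directions around ITGB7: 3 of 14 subunits rose and 4 fell against the empty vector, and 3 rose and 3 fell against WT. ITGA4, one of its alpha partners, had 6 pooled counts with E419Q, 7 with WT and 17 with the empty vector and was too low to test. ITGAE, the other partner, averaged 11.1 ± 1.93 CPM with E419Q, 9.16 ± 2.33 CPM with WT and 11.4 ± 0.624 CPM with the empty vector and passed in neither comparison. ITGA3, the laminin-binding alpha 3 subunit of epithelium, rose by 0.81 against WT (SE 0.0664) and by 0.25 against the empty vector (SE 0.0651). It averaged 1364 ± 59.65 CPM with E419Q, 767.2 ± 29.34 CPM with WT and 1123 ± 140.7 CPM with the empty vector. With WT against the empty vector ITGA3 fell (log2 fold change -0.56, edgeR adjusted p = 1.6e-06).

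Among calsyntenins and synaptic adhesion genes, 4 of 10 rose and 1 fell against the empty vector, and 3 rose and none fell against WT. CLSTN1, the widely expressed relative of CLSTN2, rose to 751 ± 0.290 CPM with E419Q, against 611 ± 9.53 CPM with WT and 487 ± 9.40 CPM with the empty vector. APP, the amyloid precursor protein, rose by 0.61 against WT and 0.77 against the empty vector. Both were abundant without E419Q, unlike CLSTN2. The 12 neural markers summed to 213 to 237 CPM with E419Q, 306 to 326 CPM with WT and 386 to 413 CPM with the empty vector, with SNAP25, STMN2 and ELAVL4 at 0. NEFL, a neurofilament gene, held most of that sum, with 1308 pooled counts with E419Q, 2255 with WT and 3082 with the empty vector. MAP2 was highest with E419Q, with 53 pooled counts with E419Q, 12 with WT and 30 with the empty vector.

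Of SCUBE relatives and signalling partners, 3 of 11 rose and 2 fell against the empty vector, and 1 rose and 1 fell against WT. SCUBE1 and SCUBE2 stayed under 1 CPM on average in every group. DISP2, of a family that releases hedgehog ligands, rose by 1.499 against WT (SE 0.212) and 1.203 against the empty vector, and TGFBR2, the receptor that SCUBE3 binds, fell by 1.27 on the log2 scale against the empty vector (SE 0.0953) and did not pass against WT (-0.18, edgeR adjusted p = 0.383). Of the mRNA export factors around NXF3, 1 of 18 rose and 3 fell against the empty vector, and none rose and 1 fell against WT. NXF1 averaged 70.6 ± 11.5 CPM with E419Q, 64.6 ± 3.26 CPM with WT and 71.1 ± 0.0922 CPM with the empty vector, and NXF2 and NXF5 had no count.

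**Figure D5:**
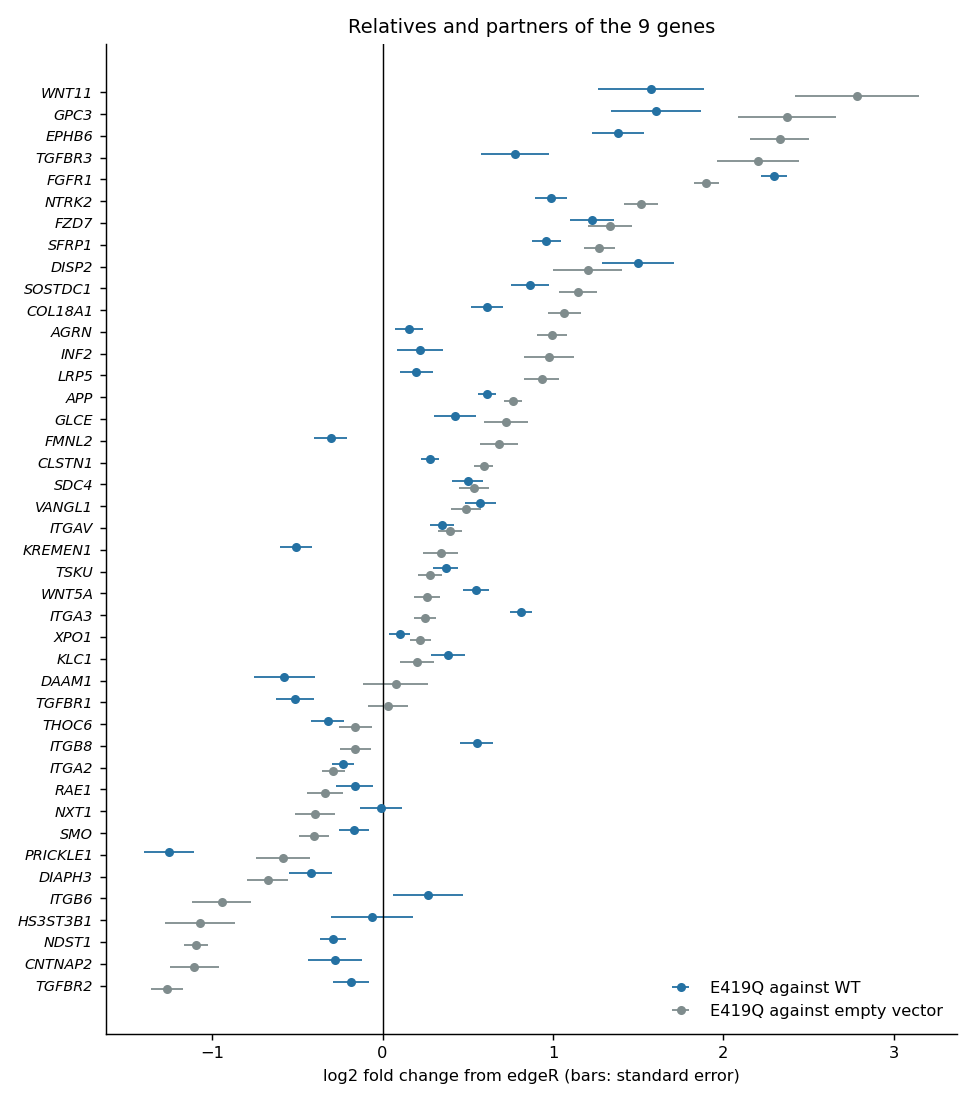
Log2 fold changes from edgeR with standard errors, on the horizontal axis, for relatives and partners of the 9 genes, against WT (blue) and against the empty vector (grey); the genes are up to 3 per list with the smallest adjusted p in each comparison. WNT11, GPC3, EPHB6, TGFBR3 and FGFR1 stand highest against the empty vector (1.90 to 2.78).

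In BICR31 the same lists are read against 15.3% rises and 10.8% falls over all genes tested with siKLF5 against siNC. Of 11 heparan sulphate proteoglycans 3 rose and 3 fell (3 to 4 and 2 to 4 in the alternatives), and of 19 enzymes that build heparan sulphate 6 rose and none fell (2 to 6 and 0 to 1). Of 15 WNT antagonists, receptors and feedback genes 2 rose and 2 fell (2 and 2 to 3), of 21 planar polarity genes 4 rose and none fell (2 to 5 and 0 to 1), and of 12 formins 3 rose and 2 fell (2 to 3 and 2). Of 36 receptor tyrosine kinases 10 rose and 3 fell (7 to 10 and 2 to 4), and of 19 integrin subunits 7 rose and 3 fell (5 to 7 and 3). Of 13 SCUBE relatives and partners 4 rose and none fell (2 to 4 and 0), and of 11 calsyntenins and synaptic adhesion genes 4 rose and 1 fell (4 to 5 and 0 to 1). Of 18 mRNA export factors none rose and 6 fell (0 and 3 to 7), and of 4 small leucine-rich proteoglycans none passed (0 to 1 rises). DISP2 rose with siKLF5 (log2 fold change 0.84, SE 0.214, limma adjusted p = 0.00724), a call lost without siKLF5 library B (0.0589, the highest of the alternatives). Other relatives named above moved in both directions. LRP5 rose (0.55, limma adjusted p = 4.44e-06), whereas GPC1 (-0.37, limma adjusted p = 0.000296) and NXF1 (-0.37, limma adjusted p = 0.0181) fell. CLSTN1, DAAM1, LRP4, LRP6, NELL2, ITGA4 and ITGAE did not pass.

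Genes beside the 9 on the chromosomes were compared as well. Of the 54 nearest annotated genes, 3 on each side in RefSeq order, 28 were in the files and 12 were tested. Against the empty vector 4 of these rose (GPC3, RARG, ZNF740 and ZNF76) and 1 fell (VGLL2), beside 10.4% and 10.8% of all genes. Against WT 3 rose (GPC3, RARG and SLC61A1) and none fell, beside 4.41% and 3.59% of all genes. Of these, GPC3 in both comparisons and RARG against the empty vector (log2 fold change 0.56, SE 0.0907) kept the call in all 11 alternatives. RARG, a retinoic acid receptor of epithelium, lies beside ITGB7. The other calls were lost in at least 1 alternative, with a highest adjusted p of 0.0894 for VGLL2, 0.360 for ZNF740, 0.126 for ZNF76, 0.496 for SLC61A1 and 0.141 for RARG against WT. With the 3 nearest protein-coding genes in place of any gene, 29 were tested, of which 7 rose and 4 fell against the empty vector, and 4 rose and 1 fell against WT. The additional calls hold ETV4, an ETS transcription factor near SOST, which had 121.6 CPM with E419Q, 61.0 CPM with WT and 36.35 CPM with the empty vector on average (log2 fold change 0.98 against WT and 1.71 against the empty vector, in all 11 alternatives of each). ATP2B4, near PRELP, rose against the empty vector (log2 fold change 1.21, edgeR adjusted p = 8.92e-11, in all 11 alternatives). It did not pass against WT (0.07, edgeR adjusted p = 0.682). BTG2, also near PRELP, rose against the empty vector (0.50, edgeR adjusted p = 0.0249) and fell against WT (-0.56, edgeR adjusted p = 0.0114). Each BTG2 call was kept in 8 of 11 alternatives. Of the 3 protein-coding genes on one side of ROS1, DCBLD1, GOPC and NUS1, all fell against the empty vector (by 0.79, 0.48 and 0.34 on the log2 scale), opposite to ROS1 itself, and none passed against WT. The GOPC call was lost without E419Q library B (edgeR adjusted p = 0.1003) and with DESeq2 (0.0637), and the NUS1 call likewise (0.148 and 0.182), whereas DCBLD1 kept it in all 11 alternatives.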

How the data were processed

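The 9 genes and the lists were chosen with earlier results of these data known. Reads were processed with STAR and RSEM on hg19, and for HCC95 edgeR and limma are also named, per the submitters' processing notes; no versions are stated there. The HCC95 files hold RSEM expected counts that the authors deposited unscaled, beside TPM and FPKM columns, per the file headers; TPM gave levels per length and FPKM was not used. For BICR31 the authors deposited a normalised signal by an unstated method; 1 count was worth 7.874 to 9.119 units, and 81.73% to 82.66% of values above 0 were then whole within 0.02, so BICR31 counts are estimates.

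Expected counts were rounded and tested with edgeR 4.0.16 (TMM, filterByExpr, quasi-likelihood, 6 HCC95 libraries in one fit, group only). The BICR31 signal was tested with limma 3.58.1 (trend) on log2(signal + 1) for genes averaging 10 units or more. Adjustment was Benjamini-Hochberg over all genes tested, two-sided, with a threshold of 0.05. CPM is relative to the library total. Ratios pool the counts of a group, with a floor of 3 counts over the group where it had none. A level of 3 counts equals 0.646 to 0.976 CPM per HCC95 library and 1.307 to 1.561 CPM per BICR31 library. Tests were checked on simulated data. Alternatives were DESeq2 1.42.0, other scaling and filters, the replicate letter as a block, each library left out and, chosen after seeing the data, edgeR on estimated BICR31 counts and protein-coding neighbours only. The main fits did not pair libraries by letter.

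Named besides the 9 and KLF5 were the genes of the E419Q pattern most correlated with them, up to 3 called genes per list with the smallest adjusted p in each comparison with E419Q, called neighbours, and close relatives, partners and markers for their kinship or role. Neighbours and promoters came from RefSeq on GRCh38.p14. Software was Python 3.11.15 (scipy 1.17.1, pandas 2.3.3, numpy 2.4.6, matplotlib 3.10.9) and R 4.3.3.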

Additional observations from a re-analysis of the deposited data

How the results depend on the processing

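DESeq2 called fewer genes than edgeR: 1169 against 2737 for E419Q against the empty vector, 467 against 1034 for E419Q against WT and 1150 against 2962 for WT against the empty vector. Leaving out 1 library each gave 1626 to 2603, 597 to 1172 and 1719 to 2792 calls in the same 3 comparisons; the lowest came without E419Q library B, without E419Q library A and without WT library A. With the replicate block the counts were 2686, 987 and 2900, and 4076 against 4097 for siKLF5 against siNC. The correlation of same-letter deviations was -0.0642 to 0.0541. With 2 HCC95 libraries per group, A and B mirror each other, so each pair of groups gives only 1 such value. These correlations cannot show whether libraries of the same letter were handled together. Quantile normalisation moved the siKLF5 split to 2005 rises and 2129 falls, against 2404 and 1693 without it, and edgeR on estimated counts gave 2259 and 2163; SCUBE3 and GPC4 rose under both. For WT against the empty vector the fitted log2 fold change of SOST, at 3 counts per group, ranged up to 0.79 with 1 library left out and turned to -0.51 without empty vector library B and -0.36 without WT library B. With siKLF5, ITGB7 ranged from -0.62 without siNC library A to 2.38 and DAAM2 from -0.58 without siNC library C to 1.09, neither called. A limit of 4 times in place of 8 gave 28 genes high with E419Q, 7 with WT and 19 with the empty vector, and a minimum of 20 counts gave 3 for the empty vector. Called neighbours, 5 against the empty vector, were 2 with DESeq2, 2 to 5 with 1 library left out (2 without E419Q library B, 3 without empty vector library B) and 11 with protein-coding neighbours. The causes of these shifts were not tested. Of the 9 genes, 6 were at least 8 times above both other groups without E419Q library A, 5 without E419Q library B and 5 by TPM. The depth limits every statement on genes at 0 to 3 counts.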
